A study of Mus musculus with 32 samples.

Results

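Macrophages at the borders of the brain sit in the sheath around arteries and in the overlying meninges, outside the tissue that microglia occupy. They take up material from the perivascular fluid through scavenger and endocytic receptors, and they are told from microglia by a small set of genes. The levels of 9 such genes were followed here in RNA sequencing libraries of mouse brain arteries. They are Mrc1, Cd163, Stab1, Lyve1 and Folr2, which encode receptors for glycoproteins, hemoglobin complexes, modified lipoproteins, hyaluronan and folate, Pf4 and F13a1, which encode the chemokine CXCL4 and the A subunit of coagulation factor XIII, Cbr2, which encodes a carbonyl reductase, and Ms4a7, which encodes a membrane protein of the MS4A family. The genes were taken by symbol, not by a threshold on their values in these libraries. All 9 were among the 55357 genes of the count table, and all 9 had enough counts to be tested in every comparison.

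The series holds 32 libraries from dissected brain arteries, 1 per mouse and 8 per group. Notch3+/+ and Notch3-/- mice were aged 3 months, and TgNotch3R169C mice and their WT controls (genotype non-Tg) were aged 12 months. All lines were on a C57BL/6 background and no mouse was treated. The Notch3-/- line lacks a working Notch3 gene in every cell. The TgNotch3R169C line carries rat Notch3 with the CADASIL mutation as a genomic transgene on the X chromosome, which per the study's methods largely escapes X-inactivation in females, and it keeps its own mouse Notch3. CADASIL is the inherited small-artery disease caused by NOTCH3 mutations. The sex of each mouse is not in the labels. Arteries were taken without a stated perfusion step, so blood and adhering meninges can be in the sample. Each result is therefore that of a piece of vessel with several kinds of cell, in which fewer macrophages and less RNA per macrophage cannot be told apart.

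Libraries held 20289487 to 54481934 counts. Levels are given as CPM, the counts scaled to a common library total with TMM factors over all libraries. The labels were checked with Notch3 itself, which lay at 13.7 to 18.5 CPM in Notch3-/- mice, at 65.8 to 98.1 CPM in Notch3+/+ mice, at 60.1 to 85.0 CPM in WT mice and at 108 to 219 CPM in TgNotch3R169C mice. The lowest TgNotch3R169C mouse was replicate 3, and the rest of that group were at 168 to 219 CPM. The 4 groups were in the order that their labels give, although reads of the rat transgene and of mouse Notch3 cannot be told apart. In 7 libraries the 8 choroid plexus genes, among them Ttr, which encodes the transport protein transthyretin, summed to more than 1000 CPM. These were 4 of the WT libraries, 2 of the TgNotch3R169C libraries, 1 of the Notch3-/- libraries and none of the Notch3+/+ libraries. The members' results and the calls of the other lists are given with and without them, in fits added after the data were seen.

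Promoter sequences are shown for the members whose promoter holds a match to AGGAAGT, the core bound by PU.1, an ETS family factor that macrophages need. RefSeq promoters of GRCm38.p6, 250 bases before to 50 bases after each annotated start, were matched for 8 of the 9 members, with 11 promoters in all. Lyve1 had no entry. The match is in capitals, as AGGAAGT or as its reverse complement ACTTCCT, and each sequence runs 5′ to 3′ along the gene.
Mrc1, chr2:14229164-14229463, plus strand: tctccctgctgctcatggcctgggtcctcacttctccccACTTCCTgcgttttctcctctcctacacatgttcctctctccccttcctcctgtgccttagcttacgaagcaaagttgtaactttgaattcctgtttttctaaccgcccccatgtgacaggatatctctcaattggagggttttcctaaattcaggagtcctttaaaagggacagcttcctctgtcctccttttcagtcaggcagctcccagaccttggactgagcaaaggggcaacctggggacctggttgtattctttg
Folr2, chr7:101857141-101857440, minus strand: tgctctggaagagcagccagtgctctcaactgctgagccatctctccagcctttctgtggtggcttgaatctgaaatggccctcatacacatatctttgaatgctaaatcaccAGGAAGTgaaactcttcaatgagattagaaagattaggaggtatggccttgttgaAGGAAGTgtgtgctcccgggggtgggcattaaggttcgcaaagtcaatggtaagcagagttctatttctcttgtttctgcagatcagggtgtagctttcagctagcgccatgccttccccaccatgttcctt
F13a1, chr13:37049164-37049463, minus strand: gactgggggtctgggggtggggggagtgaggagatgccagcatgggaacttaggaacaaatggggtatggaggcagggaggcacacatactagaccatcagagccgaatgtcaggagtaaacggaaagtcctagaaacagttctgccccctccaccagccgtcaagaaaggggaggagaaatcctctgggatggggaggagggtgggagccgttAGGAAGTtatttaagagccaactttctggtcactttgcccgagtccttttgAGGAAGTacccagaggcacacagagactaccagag
Pf4, chr5:90772185-90772484, plus strand: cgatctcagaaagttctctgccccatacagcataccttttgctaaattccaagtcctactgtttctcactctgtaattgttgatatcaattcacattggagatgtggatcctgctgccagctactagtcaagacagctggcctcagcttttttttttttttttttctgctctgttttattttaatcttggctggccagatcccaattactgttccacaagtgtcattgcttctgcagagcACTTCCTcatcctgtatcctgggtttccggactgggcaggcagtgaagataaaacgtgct

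The match lay 211 bases before the start of Mrc1, 137 and 82 bases before the upstream start of Folr2, 36 bases before and 15 bases after the downstream start of F13a1, and 10 bases before the start of Pf4. In all, 4 of the 11 member promoters held it on either strand, beside 9.35% of 32851 mouse promoters of the same length. Both strands were searched for each of 4 motifs, and no match overlapped another. The MAF site TGCTGA was in 4 of the 11 (19.5% of all promoters), the AP-1 site TGACTCA in 1 (5.2%) and the E-box CACGTG in none (7.15%). These are matches of letters and not shown to be sites of binding.

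All 9 genes were measured well above the counting floor in every library. The lowest count of any member in any library was 262, for Pf4. Per kilobase of exon, Stab1 and Mrc1 were the most abundant, at 31.5 ± 3.43 and 30.8 ± 5.05 CPM per kilobase (mean ± SD, n = 32). Cbr2 followed at 27.9 ± 4.15, Pf4 at 25.7 ± 3.94, F13a1 at 19.8 ± 3.75, Lyve1 at 14.7 ± 4.40, Cd163 at 14.3 ± 2.89 and Folr2 at 11.8 ± 2.09 CPM per kilobase. Ms4a7 was the least abundant, at 3.24 ± 0.545 CPM per kilobase. Of the 8 pairs of neighbors in this order, only Folr2 and Ms4a7 lay apart by more than the sum of their SDs. With the length of the longest transcript in place of all exons, F13a1 moved from 5th to 3rd, at 33.8 CPM per kilobase, so the order in the middle depends on the gene model. Csf1r, the growth factor receptor that defines macrophages, was also present, at a mean of 267 CPM. It is 1 of 15 general macrophage genes, whose summed level ran from 1127 to 1739 CPM over all libraries.

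Mrc1 encodes the mannose receptor CD206, the most used marker of border macrophages. Its lowest, median and highest levels were 173, 217 and 280.4 CPM in Notch3+/+ mice and 175, 218 and 255 CPM in Notch3-/- mice. They were 153, 175 and 201 CPM in WT mice and 137, 181 and 226 CPM in TgNotch3R169C mice. The 2 groups aged 3 months lay on each other, both groups aged 12 months were centered lower, and all 4 ranges overlapped.

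Stab1, the scavenger receptor stabilin-1, had the steadiest level of the 9. Its lowest, median and highest levels were 274, 313 and 394 CPM in Notch3+/+ mice and 282, 336 and 369.5 CPM in Notch3-/- mice. They were 264, 330.0 and 368 CPM in WT mice and 278, 304 and 384 CPM in TgNotch3R169C mice. The highest mouse of all 32 had 1.49 times the level of the lowest. Group means differed by less than 1 SD.

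Cd163, which takes up hemoglobin bound to haptoglobin, varied more from mouse to mouse. Its lowest, median and highest levels were 52.7, 77.2 and 109 CPM in Notch3+/+ mice and 63.9, 82.6 and 105 CPM in Notch3-/- mice. They were 61.1, 79.2 and 101 CPM in WT mice and 51.3, 69.3 and 102 CPM in TgNotch3R169C mice. The 4 ranges nearly coincided. The highest of the TgNotch3R169C mice, replicate 3, stood apart from the next, at 74.6 CPM.

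Lyve1, the hyaluronan receptor that marks a subset of border macrophages as well as lymphatic vessels, had the widest spread, with a CV of 30.0% over the 32 mice. Its lowest, median and highest levels were 28.5, 37.3 and 67.7 CPM in Notch3+/+ mice and 28.7, 49.0 and 65.3 CPM in Notch3-/- mice. They were 28.8, 37.4 and 68.9 CPM in WT mice and 26.8, 30.1 and 54.5 CPM in TgNotch3R169C mice. The groups overlapped widely, and the TgNotch3R169C group had the lowest median. The 6 lymphatic endothelial genes summed to 202 to 266 CPM over all libraries, most of it from Pdpn (mean 135 CPM) and Reln (47.0 CPM), which other cells of the meninges and brain also make.

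Folr2, a folate receptor of macrophages, was lowest in Notch3+/+ mice. Its lowest, median and highest levels were 11.6, 15.2 and 22.7 CPM in Notch3+/+ mice and 13.4, 18.7 and 22.3 CPM in Notch3-/- mice. They were 16.9, 20.7 and 24.3 CPM in WT mice and 16.2, 18.0 and 23.3 CPM in TgNotch3R169C mice. The ranges overlapped, although 6 of the 8 Notch3+/+ mice were below every mouse aged 12 months.

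F13a1, the transglutaminase that cross-links fibrin, is made by resident macrophages as well as by platelets. Its lowest, median and highest levels were 93.3, 149.8 and 172 CPM in Notch3+/+ mice and 107, 140.25 and 174 CPM in Notch3-/- mice. They were 113, 131 and 170.3 CPM in WT mice and 92.4, 114 and 194 CPM in TgNotch3R169C mice. TgNotch3R169C replicate 3 was again the highest, while the other 7 mice of that group were at or below 126 CPM.

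The other members had ranges over the 32 mice of 10.7 to 24.6 CPM for Pf4, 25.8 to 54.4 CPM for Cbr2 and 9.18 to 18.8 CPM for Ms4a7. Their group means were 16.7 to 19.7 CPM, 34.8 to 38.8 CPM and 13.0 to 15.7 CPM, respectively. Pf4 is also a gene of platelets, and the 8 genes of the platelet list summed to 17.1 to 32.5 CPM over all libraries. For each of the 9 members the ranges of the groups compared overlapped, as the plot of levels by mouse shows. The share of all genes with overlapping ranges was not computed, so this is a description only.

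**Figure D1:**
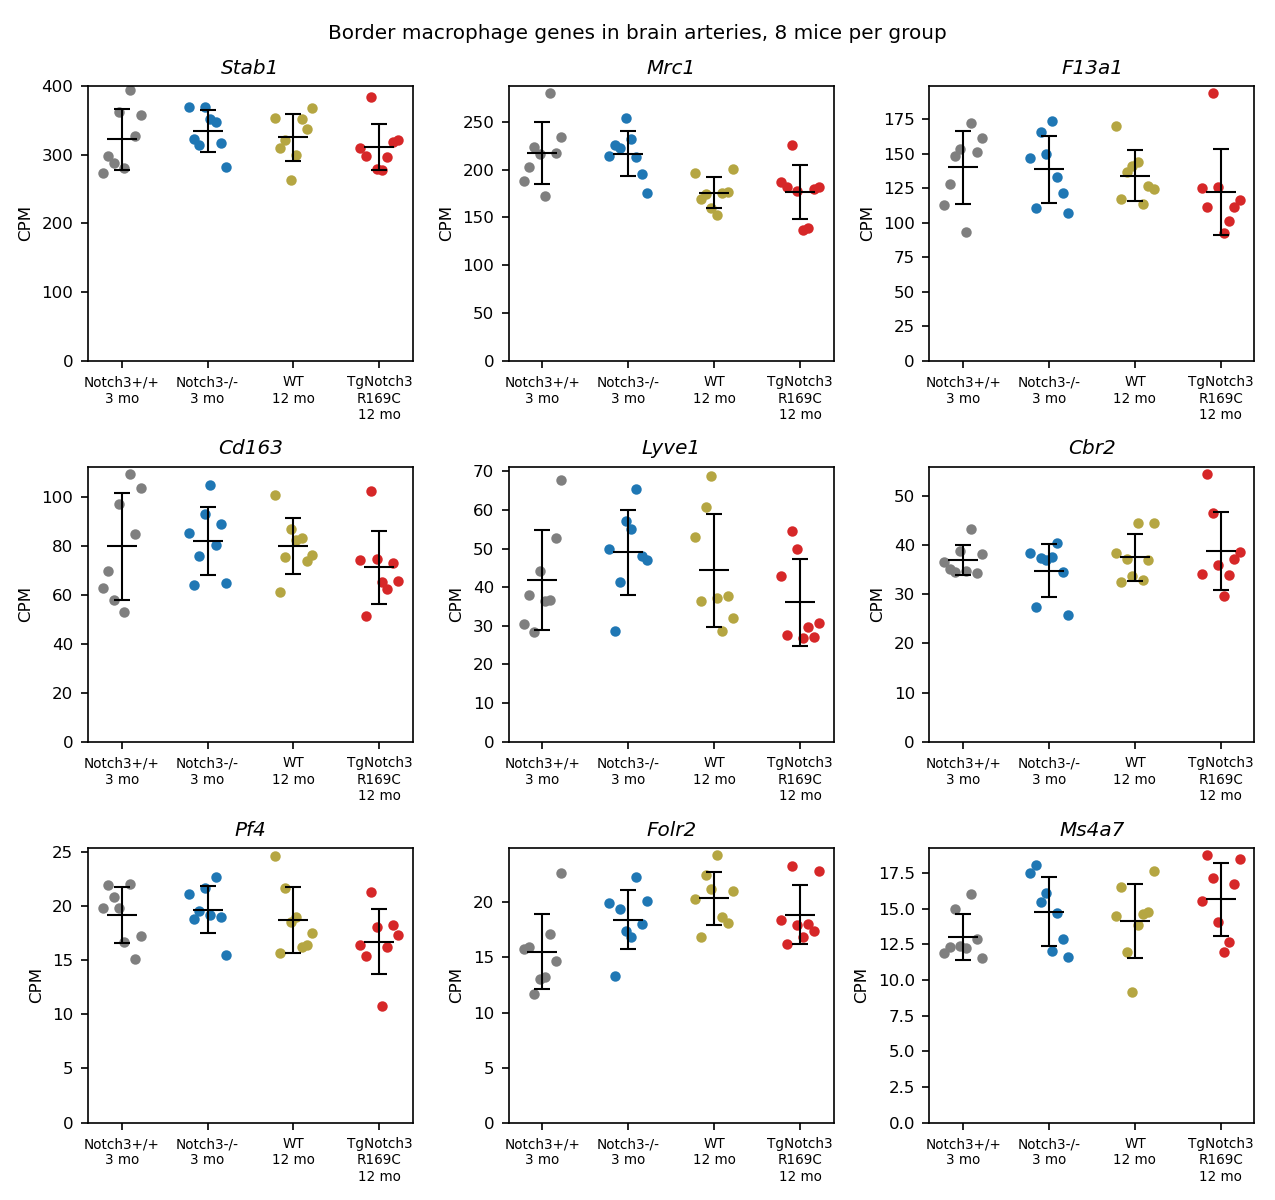
CPM of each of the 9 genes (y axis, from 0) in the 8 mice of each of the 4 groups (x axis). Points are mice in the order of their replicate numbers, and bars are the mean ± SD. The ranges of the groups overlap for every gene, and the red point that stands highest for Stab1, F13a1 and Cd163 is TgNotch3R169C replicate 3.

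The first question was whether loss of Notch3, the receptor of arterial smooth muscle cells, came with a change in these macrophage genes at 3 months. It did not pass the test for any of them. With edgeR's quasi-likelihood test, 0 of 9 members were called at an adjusted p below 0.05, and 0 had an unadjusted p below 0.05. Over all genes, 0.649% were called (115 of 17714). DESeq2 and limma voom also called 0 of 9, beside 280 of 21859 and 113 of 17714 genes. The median log2 fold change of the members was 0.05, with 7 above 0 and 2 below, beside −0.0011 over all genes. The largest differences were those of Folr2, at 0.25 (SE 0.124, adjusted p = 0.686), Lyve1, at 0.24 (SE 0.179, adjusted p = 0.870), and Ms4a7, at 0.18 (SE 0.0998, adjusted p = 0.739). Mrc1 differed by less than 0.01 on the log2 scale, with a 95% CI of −0.18 to 0.19. Across the 9 genes, the 95% CIs ran from −0.28 to 0.61, so a rise of Lyve1 up to 1.53-fold is within them, and for Mrc1 a change beyond 1.14-fold in either direction is outside.

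The same libraries had a clear difference in smooth muscle genes. Of the 8, 7 were below 0 in Notch3-/- mice and 6 were called lower. The log2 level of Myh11, the smooth muscle myosin heavy chain, fell by 1.04 (SE 0.130, adjusted p = 0.000395). That of Acta2, smooth muscle actin, fell by 0.63 (SE 0.122, adjusted p = 0.0190). The remaining gene of the 8 went the other way, at 0.28, with an unadjusted p below 0.05 in edgeR's test but no call. Among the macrophage lists, 1 gene was called. Mgl2, which encodes a galactose-binding lectin of macrophages and dendritic cells, was at 17.8, 20.9 and 25.3 CPM (lowest, median and highest) in Notch3+/+ mice and at 14.5, 16.5 and 17.1 CPM in Notch3-/- mice. It fell by 0.40 in log2 terms (SE 0.0694, adjusted p = 0.00848). The ranges did not overlap. Mgl2 has a close paralog, Clec10a, with which reads can be shared, and Clec10a had a log2 fold change of 0.11 (adjusted p = 0.939). Without Notch3-/- replicate 8, the choroid-rich library of the group, Mgl2 was at −0.38 (adjusted p = 0.0215), and 4 of the 8 smooth muscle genes were called.

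The next comparison asked the same of the CADASIL model at 12 months. Again, 0 of 9 members were called and 0 had an unadjusted p below 0.05 in edgeR's test. Over all genes, that test called 0.113% (20 of 17731). With DESeq2 and limma voom 0 of 9 were called, beside 74 of 22405 and 20 of 17731 genes. The median log2 fold change of the members was −0.11, with 3 above 0 and 6 below, beside −0.0074 over all genes. Lyve1 was at −0.30 (SE 0.212, adjusted p = 0.765), Cd163 at −0.17 (SE 0.121, adjusted p = 0.765) and Pf4 at −0.16 (SE 0.125, adjusted p = 0.779). Ms4a7, at 0.15 (SE 0.126, adjusted p = 0.797), was the highest. Mrc1 was at 0.01 (95% CI, −0.19 to 0.21). The 95% CIs of the 9 genes ran from −0.75 to 0.42, so these data leave room for a level of Lyve1 in TgNotch3R169C mice down to 0.596 times that of WT mice.

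In this comparison 2 libraries stood at the ends. TgNotch3R169C replicate 3 was the highest of its group for 7 of 9 members, with a summed level of 1069 CPM, and replicate 5 was the lowest for 7, with 668 CPM. Replicate 5 had 14503 CPM of choroid plexus genes and the lowest sum of fibroblast genes of all libraries, at 4126 CPM. Without replicate 3, the median of the members was −0.16, Lyve1 was at −0.41 (adjusted p = 0.581) and F13a1 at −0.26 (adjusted p = 0.522). Then 0 of 9 were called, beside 15 of 17853 genes. Without the libraries over 1000 CPM of choroid plexus genes, which left 6 TgNotch3R169C and 4 WT libraries, the median was −0.14. In that fit 0 of 9 were called, beside only 2 of 18097 genes. None of the genes of the 22 other lists of cell types and pathways were called in TgNotch3R169C mice.

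The changes in the 2 mutants were then compared with each other in a fit of all 4 groups. Since age and line differ between the pairs of groups, the contrast holds these as well. No member passed (0 of 9, beside 0.35% of 18555 genes). With DESeq2 and limma voom 0 of 9 passed as well, beside 153 of 21394 and 68 of 18555 genes. Folr2 had an unadjusted p of 0.0300 in edgeR's test, with a difference of −0.36 (SE 0.157, adjusted p = 0.528), which is 0.25 in Notch3-/- mice and −0.11 in TgNotch3R169C mice. Lyve1 differed by −0.53 (SE 0.284, adjusted p = 0.613), the widest gap of the 9, from 0.24 to −0.30. The other 7 genes lay between −0.21 and 0.13. Thus a difference between the mutants was not detectable at this spread, and the 95% CI of Lyve1 reached from −1.11 to 0.05.

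**Figure D2:**
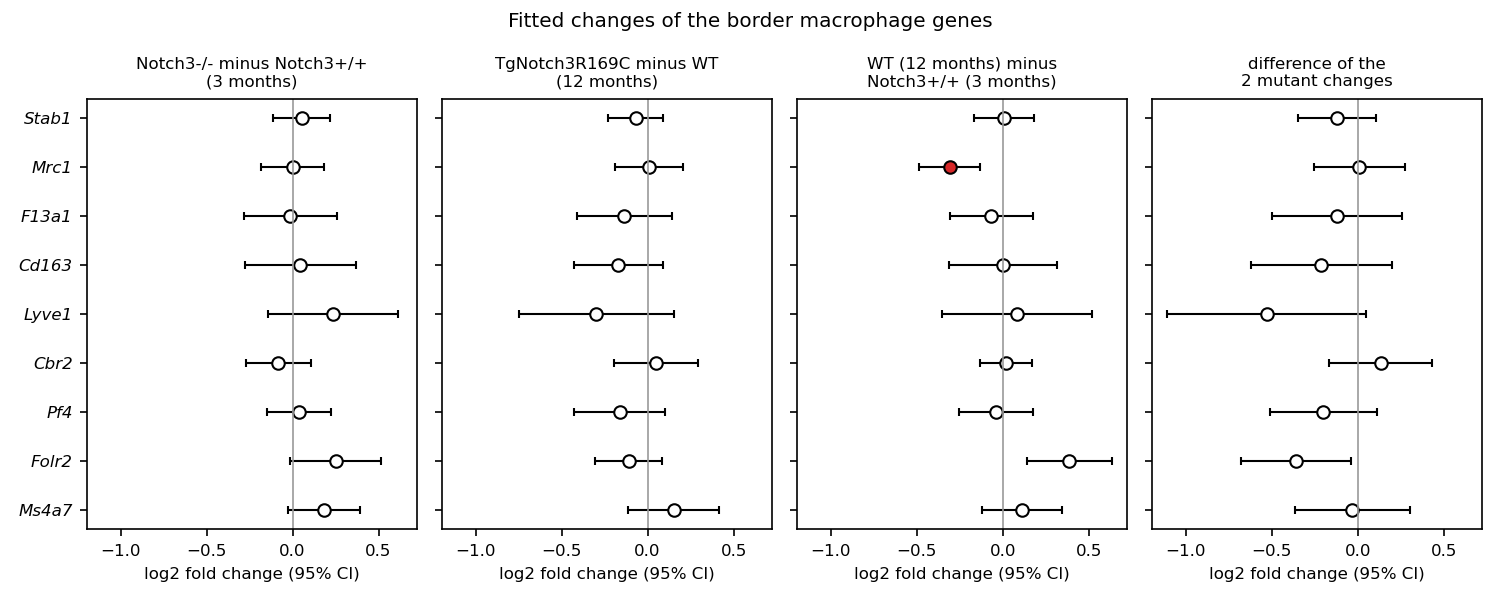
Fitted log2 fold change (x axis) of each of the 9 genes (y axis) in 4 comparisons, with bars for the 95% CI. Open points did not pass an adjusted p of 0.05, and the red point is Mrc1 between the control groups, at −0.31; every interval in the first 2 panels includes 0.

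The control groups differ in age, in mouse line and in cohort, and these cannot be told apart. Between them, WT mice at 12 months and Notch3+/+ mice at 3 months, 7.92% of all genes were called (1398 of 17643), and 1 of 9 members was. Mrc1 fell by 0.31 on the log2 scale (SE 0.0833, 95% CI −0.48 to −0.13, adjusted p = 0.0319), from 217 ± 32.4 CPM to 176 ± 16.3 CPM (mean ± SD, n = 8 each). Folr2, at 15.5 ± 3.40 and 20.4 ± 2.42 CPM, was at 0.39 on the same scale (SE 0.117, 95% CI from 0.14 to 0.64) and just missed the threshold (adjusted p = 0.0513). The other 7 were within −0.07 to 0.11, and the median of the members was 0.01, beside 0.0026 over all genes. Stab1 was at 0.01 (95% CI −0.17 to 0.18) and Cd163 at less than 0.01 (95% CI −0.31 to 0.31). A count of 1 in 9 is near the share called over all genes.

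The call of Mrc1 rests on several libraries. Leaving out 1 library at a time, it held in 9 of 16 fits, with log2 fold changes of −0.35 to −0.25, and was lost without Notch3+/+ replicates 6, 7 or 8 or WT replicates 2, 4, 5 or 6 (adjusted p up to 0.0591). WT replicates 2, 4, 5 and 6 are the 4 with over 1000 CPM of choroid plexus genes. Without all libraries over that limit, 8 against 4, Mrc1 was at −0.22 (adjusted p = 0.255) and Folr2 at 0.40 (adjusted p = 0.162). In that fit 0 of 9 were called, beside 402 of 18086 genes. Folr1, the paralog of Folr2, is a choroid plexus gene and rose by 4.60 on the log2 scale (SE 1.17, adjusted p = 0.0240) between the control groups. Folr2 was at 0.39 with all libraries and at 0.40 without the choroid-rich ones. The part of choroid plexus RNA in the value of Folr2 was not tested further. With DESeq2 and limma voom, both Mrc1 and Folr2 were called, beside 2365 of 21432 and 1249 of 17643 genes.

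The mutant groups have the same pair of ages and lines in other mice, but they also differ in Notch3 genotype. Age, line, cohort and genotype cannot be told apart between them. Between TgNotch3R169C mice at 12 months and Notch3-/- mice at 3 months, 3.82% of all genes were called (682 of 17865) and 0 of 9 members. Mrc1 had a log2 fold change of −0.29 (adjusted p = 0.0882) there, close in size to that between the controls, and Folr2 one of 0.04 (adjusted p = 0.889). This comparison was added after the first had been seen.

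Genes of other cells also differed between the control groups. All 8 smooth muscle genes fell, by 0.41 (Smtn) to 1.08 (Cnn1) on the log2 scale. Of 8 fibroblast genes 7 were below 0 and 4 were called lower. Col3a1, a fibrillar collagen, fell the most, by 0.76 (SE 0.0784, adjusted p = 0.000109). All 8 choroid plexus genes were above 0 and 6 were called higher. The summed level of the 8 ran from 314 to 659 CPM in Notch3+/+ mice and from 293 to 25721 CPM in WT mice. Pecam1, an adhesion molecule of endothelium, was the 1 called of 8 endothelial genes and fell by 0.52 (SE 0.0890, adjusted p = 0.00285), with 4 of the 8 lower at an unadjusted p below 0.05 in edgeR's test. Brain cell genes were called as well. All 8 oligodendrocyte genes were above 0 and 3 were called higher, among them Mag and Cnp. Of 8 astrocyte genes 2 were called higher (Aldh1l1 and S100b) and 1 lower (Gja1). Without the choroid-rich libraries, 8 against 4, 6 smooth muscle, 3 fibroblast and 1 endothelial gene were still called lower and 0 choroid plexus genes higher, with 1, Kl, lower. Col3a1 was then at −0.79 (adjusted p = 0.00570) and Pecam1 at −0.48 (adjusted p = 0.0429), while 0 oligodendrocyte genes and 2 of the 3 astrocyte genes (Aldh1l1 and Gja1) were called.

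The fibroblast sum ran from 5321 to 6989 CPM and from 4706 to 5677 CPM in Notch3+/+ and WT mice, respectively. With the fibroblast list mean in the fit, Mrc1 was at −0.40 (adjusted p = 0.251), with 8 of all genes called, and with the choroid plexus list mean it was at −0.18 (adjusted p = 0.374). The part of these cells in the value of Mrc1 was not tested further.

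Next, 20 other genes known from border macrophages were examined. In Notch3-/- mice, 1 of the 20 was called (Mgl2, lower), beside 0.649% of all genes. At an unadjusted p below 0.05 in edgeR's test, 4 were higher and 1 lower, beside 1363 of 17714 genes in either direction. In TgNotch3R169C mice 0 were called, beside 0.113% of all genes. There, 1 was higher and 1 lower at an unadjusted p below 0.05 in the same test, beside 1289 of 17731 genes. Between the control groups, 3 of the 20 were called higher and 0 lower, beside 7.92% of all genes called. By sign, 9 were above 0 and 11 below. At an unadjusted p below 0.05 in edgeR's test, 7 were higher and 4 lower, beside 4275 of 17643 genes in either direction. Siglec1, the sialic acid receptor CD169, was at 27.8, 30.7 and 53.1 CPM (lowest, median and highest) in Notch3+/+ mice and at 42.7, 65.5 and 86.3 CPM in WT mice. It rose by 0.86 on the log2 scale (SE 0.156, adjusted p = 0.00403). Ccl8, a chemokine, rose by 1.33 (SE 0.377, adjusted p = 0.0396) and Wfdc17, a secreted protein of myeloid cells, by 0.68 (SE 0.159, adjusted p = 0.0166). The median over the 20 genes was −0.04, so these 3 stood within a list that was otherwise centered near 0. Without the choroid-rich libraries Siglec1 was at 0.89 (adjusted p = 0.0353), Wfdc17 at 0.70 (adjusted p = 0.0790) and Ccl8 at 1.095 (adjusted p = 0.152), so Siglec1 alone of the 3 passed. Mgl2, at −0.48 (adjusted p = 0.0753) with all libraries, was called lower without them, at −0.80 (SE 0.101, adjusted p = 0.00492). In Notch3-/- mice Siglec1 had a log2 fold change of 0.64 (adjusted p = 0.151) and in TgNotch3R169C mice one of −0.13 (adjusted p = 0.861). Its mean was lowest for the Notch3+/+ group (34.8 ± 8.63 CPM, mean ± SD). The other means were 54.2 ± 16.5 (Notch3-/-), 57.9 ± 13.6 (TgNotch3R169C) and 63.5 ± 14.6 CPM (WT). The mutant groups, with the same pair of ages and lines but other Notch3 genotypes, thus lay closer for Siglec1 than the control groups did.

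General macrophage genes gave no call in any of the 4 comparisons. None of the 15, which include Csf1r and the complement genes C1qa to C1qc, were called, and their medians were 0.10 in Notch3-/- mice, −0.01 in TgNotch3R169C mice and 0.03 between the control groups. With an unadjusted p below 0.05 there was 1 of 15 in the first and 0 in the others. None of 12 microglia genes and none of 7 class II antigen presentation genes were called either. The microglia genes summed to 486 to 762 CPM, with Olfml3 (159 CPM) the most abundant, so microglia markers were present in these arteries too. The class II genes were led by Cd74 (581 CPM) and ranged from 957 to 2747 CPM between libraries.

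**Figure D3:**
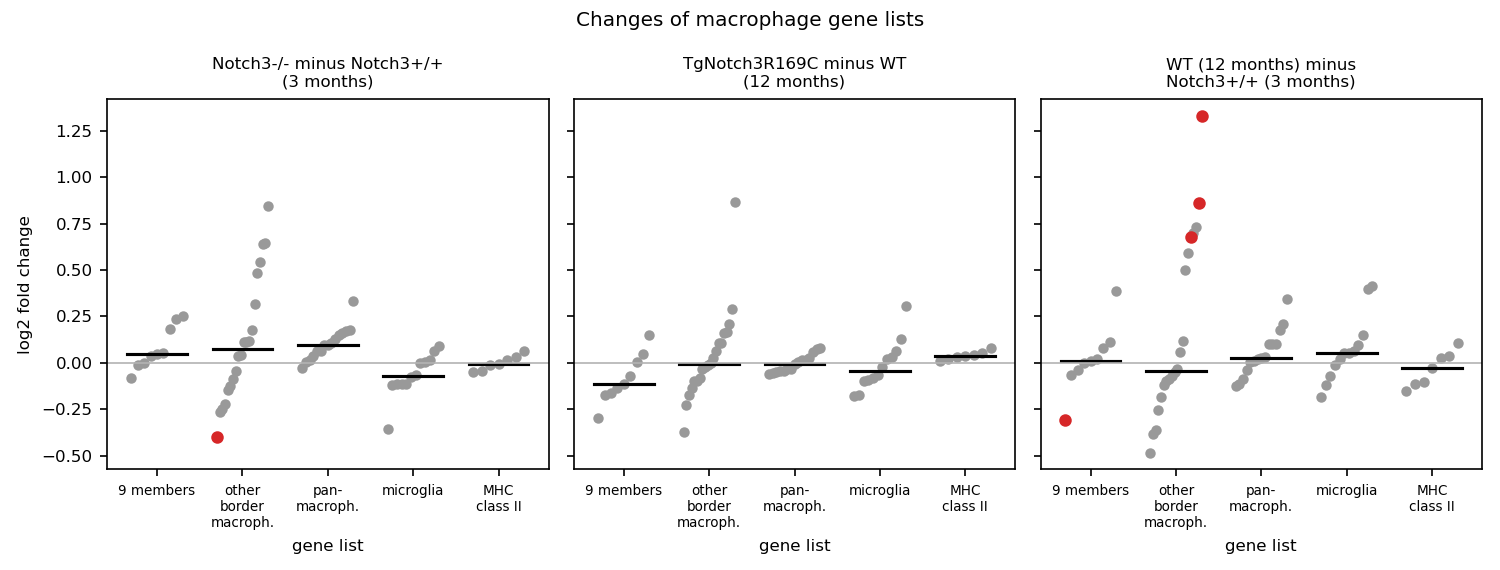
Log2 fold change (y axis) of every tested gene of 5 macrophage lists (x axis) in 3 comparisons, with a black line for the median of each list. Red points were called at an adjusted p below 0.05. They are Mgl2 in the first panel and Mrc1, Wfdc17, Siglec1 and Ccl8 in the last, and the middle panel has none.

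Genes that supply or direct macrophages were also without a call. Of 10 growth factor and lineage genes, 0 were called in each comparison. Il34, a ligand of CSF1R, came nearest in TgNotch3R169C mice, at −0.26 (SE 0.0738, unadjusted p = 0.00278 in edgeR's test, adjusted p = 0.421). It was singled out after its value was seen. Of 10 heme and iron genes, 0 were called, and Fth1, the ferritin heavy chain, had log2 fold changes of 0.20 in Notch3-/- mice (adjusted p = 0.473) and 0.22 between the control groups (adjusted p = 0.0783). Of 10 tested scavenger receptor genes outside the 9 members, 0 were called. The monocyte gene Ccr2, a chemokine receptor, fell between the control groups by 1.15 (SE 0.135, adjusted p = 0.000295), and Vcan, which monocytes and other cells make, by 0.55 (SE 0.130, adjusted p = 0.0175). Itgb3, from the platelet list, fell by 0.38 (SE 0.0714, adjusted p = 0.00517). Without the choroid-rich libraries Ccr2 was at −1.104 (adjusted p = 0.0126) and was still called, while Vcan at −0.39 (adjusted p = 0.198) and Itgb3 at −0.34 (adjusted p = 0.0723) were not.

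The members varied together from mouse to mouse within groups. With group means removed, the 36 pairs of members had a median Pearson r of 0.46 over the 32 libraries, as a description without a test, since libraries share depth and dissection. Mrc1 and Stab1 were the closest pair (r = 0.78), then Cd163 and F13a1 (r = 0.78) and Mrc1 and F13a1 (r = 0.74). F13a1 followed the mean of the other 8 most (r = 0.83), and Ms4a7 least (r = 0.23). Lyve1 and Ms4a7 ran against each other (r = −0.41, Spearman's rho = −0.38). Lyve1 went instead with Cd163 (r = 0.60), F13a1 (r = 0.57) and Folr2 (r = 0.56), and Ms4a7 with Mrc1 (r = 0.61) and Stab1 (r = 0.53). Of the 4 members that carry the PU.1 letters shown above, Mrc1, F13a1 and Pf4 had r of 0.54 to 0.74 with one another, and Folr2 had r of 0.17 to 0.40 with these 3.

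**Figure D4:**
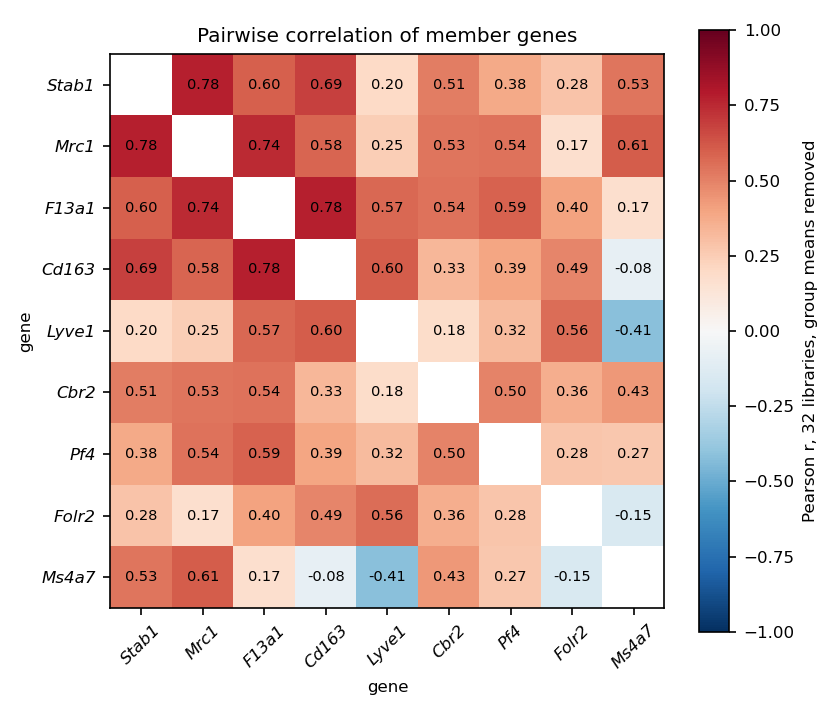
Pearson r between each pair of the 9 genes over 32 libraries after group means were removed, from −1 (blue) to 1 (red), with both axes listing the genes. Most pairs are positive, with Mrc1 and Stab1 at 0.78, and the pair of Lyve1 and Ms4a7 is the lowest at −0.41.

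The summed level of the 9 genes had medians of 870.0 CPM in Notch3+/+ mice, 926 CPM in Notch3-/- mice, 837 CPM in WT mice and 797 CPM in TgNotch3R169C mice, with ranges of 713 to 1091, 750 to 1016, 775 to 972 and 668 to 1069 CPM. The libraries at the ends were much the same for most members. Notch3+/+ replicate 6 was the highest of its group for 7 of 9, and Notch3-/- replicate 8 the lowest for 6. Notch3-/- replicate 8 was the library with the most choroid plexus RNA of its group, at 25105 CPM. Without it, the median of the members in the comparison of Notch3-/- with Notch3+/+ mice was 0.09. In that fit 0 of 9 were called, beside 98 of 17849 genes.

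The spread between mice sets what could be seen. The biological coefficient of variation was taken from edgeR's estimate of dispersion for each gene, made before the quasi-likelihood fit that gave the SEs. For the median member this coefficient was 0.152 in the Notch3-/- comparison, beside 0.136 over all genes. In the TgNotch3R169C comparison it was 0.177 beside 0.143. It was highest for Lyve1 (0.251 and 0.297) and lowest for Stab1 (0.119 and 0.115).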

How the data were processed

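RNA was sequenced from brain arteries of 32 mice with a stranded poly(A) library kit. The authors deposited raw, unnormalized counts for each Ensembl gene. The submitters' processing notes name STAR 2.5.3a, HTSeq 0.6.1p1 and build mm39, and the strand setting of the counting is not given in the sources used here. Groups were taken from the labels, and each mouse is 1 library. The 9 members and all gene lists were chosen with earlier results of these data known.

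Counts were fitted in R 4.3.3 with edgeR 4.0.16 (filterByExpr, TMM, quasi-likelihood test), 2 groups at a time as in the study, which used DESeq2. The difference between mutants was a contrast in a fit of all 4 groups. A gene was called where its p, adjusted by Benjamini-Hochberg over all genes tested, was below 0.05. Scripts were tested on simulated data. Libraries of a group were not duplicates. Alternatives used DESeq2 1.42.0, limma 3.58.1, other filters and scalings, covariates, a replicate block and leave-one-out fits. Total counts of at least 20289487 per library make counting error small beside the variation between mice, and the intervals hold both.

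Levels per kilobase used exon lengths of GENCODE vM21, which is of another build than the counts, so no coordinates of counted genes are given. Promoters are from RefSeq for GRCm38.p6. Named genes are the 9 members, the called genes of each list and otherwise its 2 most abundant, the 10 genes most like the members, and Notch3 as a check (2 genes that the rule names are not reported here), with others marked where chosen after their values were seen.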

Additional observations from a re-analysis of the deposited data

Results flagged for a closer look

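In TgNotch3R169C replicate 3, 3 members stood apart from the other 7 mice of the group. Its gap to the next mouse, as a share of the range of the group, was 0.545 for Cd163 (102 CPM, next 74.6 CPM), 0.671 for F13a1 (194 CPM, next 126 CPM) and 0.578 for Stab1 (384 CPM, next 322 CPM), above Dixon's 95% critical value for 8 samples. Of 36 groups examined, 3 had a mouse apart, and chance gives about 1.8. The 3 genes vary together, so they are not separate signs. Notch3 itself was lowest of the group in this mouse, at 108 CPM, beside 168 to 219 CPM in the other 7. A link between its Notch3 level and the members was not tested. Without this mouse, the log2 fold changes in TgNotch3R169C mice were −0.27 for Cd163 (adjusted p = 0.531), −0.26 for F13a1 (adjusted p = 0.522) and −0.12 for Stab1 (adjusted p = 0.612), where they had been −0.17, −0.13 and −0.07, and none were called.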

How the results depend on the processing

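In the comparisons of each mutant with its controls and of the mutants with each other, 0 of 9 members were called under every alternative run. Between the control groups, the number of members called was 1 as reported and 2 (Mrc1 and Folr2) with at least 10 counts in every library, DESeq2, limma voom, all 4 groups in one fit or Xist as a covariate. It was 0 with the fibroblast or the choroid plexus list mean as a covariate, and also in 2 fits added after the data were seen, the mutant groups in place of the controls and without libraries over 1000 CPM of choroid plexus genes. Leaving out 1 library at a time gave 0 to 1. The median of the members was −0.18 with the mutant groups, beside 0.01. Mrc1 was called in 17 of 28 alternatives and Folr2 in 7 of 28. The replicate block left the members called at 0, 0, 1 and 0 in the 4 comparisons. The labels do not say whether replicate numbers pair the mice. Deviations of same-numbered mice had r of −0.25 to 0.42, and at most 3 of 8 mice were closest to their own number. Such mixed values cannot settle whether mice were paired. Over all genes the replicate block gave 6 calls in place of 20 for TgNotch3R169C mice and 715 in place of 1398 between the control groups, and DESeq2 gave 280, 74, 2365 and 153 calls where edgeR gave 115, 20, 1398 and 65. All 4 groups in one fit gave 174 calls in place of 115 for Notch3-/- mice. The fibroblast and choroid plexus covariates left 8 and 215 of 1398 calls, and the fit without choroid-rich libraries 402, as well as 2 in place of 20 for TgNotch3R169C mice and 39 in place of 65 for the difference.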

Other observations

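The genes most like the 9 members were sought among 15529 others with a mean of at least 1 CPM, by Pearson r with the members' mean over 32 libraries, group means removed. Mst1r, a receptor of macrophage-stimulating protein, was first (r = 0.80, mean 12.2 CPM), then Serinc3 (0.79), Serpinf1 (0.79), Ly6a (0.78), Gltp (0.78), Grap (0.76), Man2a1 (0.76), Osbpl9 (0.75), Wfdc1 (0.75) and Vamp5 (0.75). Several of these, such as Ly6a, a surface antigen of endothelial and stem cells, and Serpinf1, a factor of fibroblasts, are not macrophage genes.

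Among lists, the mean of the 20 other border macrophage genes followed the members most (r = 0.79), then the endothelial genes (0.67), the heme and iron genes (0.66), the general macrophage genes (0.56) and the smooth muscle genes (0.55). The growth factor and lineage genes (0.52) and the red cell genes (0.51) came next. Microglia genes (0.42) and fibroblast genes (0.36) were lower, class II genes were at 0.14 and lymphatic genes at −0.11. Choroid plexus genes ran opposite (−0.47), and without the 2 farthest libraries r was −0.25. These are descriptions over libraries that share depth and dissection.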
